A study of Homo sapiens with 4 samples.

Results

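The replication-dependent histone genes were taken as every row of the count table whose symbol is H1-1 to H1-6, H2AC, H2BC, H3C or H4C with a number, or H4-16. This gave 67 members of 59652 genes, namely 6 H1, 16 H2A, 17 H2B, 13 H3 and 15 H4 genes. Huh7 and PLC cells, both wild-type hepatocellular carcinoma lines, were kept for 48 h in DMEM with 10% fetal bovine serum and either 5 mM glucose (low) or 25 mM glucose (high). Total RNA was depleted of rRNA, without selection for poly(A) tails, and sequenced with 1 library for each line and concentration. No condition had a replicate, so no difference between a pair of libraries has a replicate check, and no p-value is given within a line. The study compared the glucose concentrations to find lncRNAs related to glucose.

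Histones H2A, H2B, H3 and H4 form the core of the nucleosome, and H1 binds the linker DNA between nucleosomes. Their replication-dependent genes are transcribed mainly in S phase, when newly made DNA is packed, and most lie in clusters on chromosomes 6 and 1 with no introns. Their mRNAs typically end not in a poly(A) tail but in a short conserved stem-loop, which the stem-loop binding protein SLBP holds and behind which the U7 snRNP guides cleavage. RNA libraries made without poly(A) selection retain such mRNAs. Several members are also known to give polyadenylated mRNAs from longer transcripts.

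The stem-loop was searched on GRCh38 (hg38) in the 200 bases behind each annotated stop codon, as GG, 2 bases that are C or T, CT, TTT, a base that is not G, AG, 2 bases that are A or G, and CC. It was found behind 64 of 67 members, between 22 and 67 bases after the stop codon. Of 19943 protein-coding genes with a stop codon, 69 (0.346%) had a match, and the 5 that were not members (H2AC25, H2BC26, H2AX, H3-4 and H3-7) are histone genes too. Members without a match were H2BC10, H3C6 and H4C13. The sequences below show forms of the stem-loop, for genes whose values are given further on. Each is written 5′ to 3′ on the strand of the gene in DNA letters, and the capitals mark the stem, loop and stem.
H3C2: caaaGGCTCTTTTCAGAGCCacccacttat
H1-5: caaaGGCTCTTTTCAGAGCCacccagagac
H2BC3: caaaGGCTCTTTTCAGAGCCacctactttg
H2BC12: caaaGGCTCTTTTAAGAGCCacttaaatta
H3C8: aaaaGGCTCTTTTAAGAGCCgcctactttc
H4C3: caaaGGCCCTTTTCAGGGCCgctcacaaag
H2AC11: caacGGCTCTTTTCAGGGCCacccacgtct

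The capitals lie at chr6:26031597-26031612 (H3C2, minus strand), chr6:27866797-27866812 (H1-5, minus), chr6:26043232-26043247 (H2BC3, minus), chr6:27146366-27146381 (H2BC12, minus), chr6:26270923-26270938 (H3C8, minus), chr6:26104317-26104332 (H4C3, plus) and chr6:27133515-27133530 (H2AC11, plus), all in GRCh38 behind the stop codon. The form of H3C2 was the most frequent, with 38 members, and occurred in every class but H4. The form of H2BC12, with A in place of C at the end of the loop, had 9 members, of which 5 were H2B genes. All 14 H4 genes with a match carried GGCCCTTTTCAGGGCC (10 genes) or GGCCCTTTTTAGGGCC (4 genes), and no gene of another class carried either. H2AC11 alone had the mixed stem shown on the last line.

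Promoters differed by class as well. RefSeq windows from 250 bases before to 50 bases after the start of transcription (GRCh38.p14) were found for 62 of 67 members. The letters ATTTGCAT, the octamer known to be bound by POU2F1, stood on either strand in 11 of 15 H2A and 14 of 17 H2B promoters, in 1 of 11 H3 promoters and in no H1 or H4 promoter, against 2.19% of 27305 genes. The H3 promoter was that of H3C4, whose octamer is the same stretch counted for H2AC7 and H2BC7 (within chr6:26199394-26199423). AAACACA, known as the H1 box, stood in all 6 H1 promoters against 6.94% of genes. CCAAT stood in every H1, H2A, H2B and H3 promoter but in 3 of 13 H4 promoters, against 39.7% of genes. TATAAA stood in 50% to 81.8% of the promoters of a class, against 13.99% of genes. These words were searched on both strands, none contains another, and a match is a description of the letters and not a binding site. The octamers below are shown for H2B genes taken up again below, with the octamer in capitals on the strand of the gene.
H2BC21: tcggagccctaATTTGCATaaggtggttat
H2BC14: ttctactcctaATTTGCATaataacattta
H2BC3: ataaattccatATTTGCATaaaccccaccc

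These 30 bases lie at chr1:149886710-149886739 (minus strand), chr6:27814963-27814992 (plus) and chr6:26043815-26043844 (minus). The first also lies in the promoter of H2AC20 and the second in that of H2AC14, where the same letters are read from the other strand.

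Counted reads ranged from 16049686 (PLC, 25 mM) to 30279716 (PLC, 5 mM) per library, and 3 reads, taken as the floor, stood for 0.0991 to 0.187 CPM, the count scaled by the library total. FPKM was the CPM per kilobase of the gene length in the table. Of 8 hepatocyte and liver tumour markers, all had reads in Huh7 libraries and 7 passed FPKM 0.5 in PLC, with ALB, the serum albumin, at 6920 and 6994 CPM in Huh7 and at 180.0 and 248.0 CPM in PLC. TTR was at 0.132 and 0 CPM in PLC cells. The markers had a ratio of 25 to 5 mM over 1 for 7 of 8 in Huh7 (median 1.13) and for 7 of 7 with at least 20 reads in PLC (median 1.97, AFP 3.30), and their part in the histone values was not tested. The 3 leukocyte markers summed to at most 0.234 CPM. The 3 fibroblast markers summed to 5.61 and 6.65 CPM in Huh7 and 4.62 and 8.79 CPM in PLC, and the 3 endothelial markers to 18.3 and 19.7 CPM in Huh7, nearly all of it PECAM1, and to 0.958 and 2.37 CPM in PLC. Other RNAs that lack a poly(A) tail could be read from RN7SL1 and RMRP alone, since 5 of the 8 listed had 0 reads and TERC had 0.374 CPM or less. Their ratios of 25 to 5 mM were 0.974 and 0.971 in Huh7 and 1.06 and 1.49 in PLC.

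Histone mRNA was higher at 25 mM glucose in both lines, and the ratio was larger in PLC. In Huh7 cells the 67 members together had 6039 CPM at 5 mM and 10086 CPM at 25 mM. In PLC cells they had 1625 CPM at 5 mM and 6795 CPM at 25 mM. PLC cells at 5 mM therefore held the least histone RNA, 0.163% of all counted reads against 0.604% to 1.01% in the others. The ratio of 25 to 5 mM was 1.67 in Huh7 (95% counting interval 1.66 to 1.68) and 4.18 in PLC (4.14 to 4.23). Such intervals are exact Clopper-Pearson intervals of the share of reads in the 25 mM library; they cover counting error only and compare libraries, not conditions. Bulk RNA cannot tell more cells in S phase from more histone mRNA per cell. For all genes with 20 or more reads in either library of the line, the median ratio was 1.04 in Huh7 as in PLC.

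**Figure D1:**
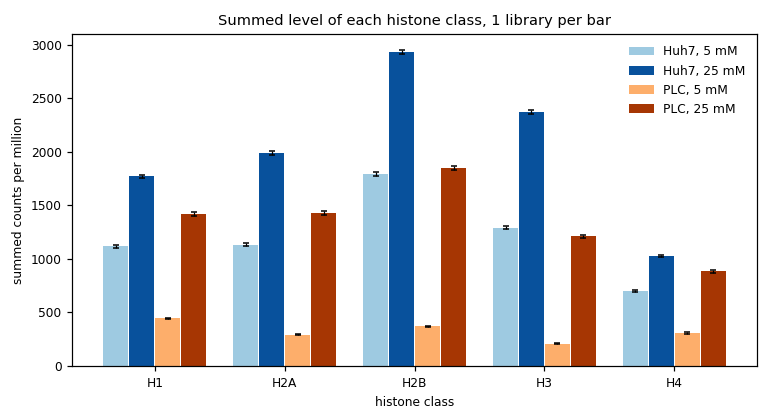
Summed CPM of each histone class (vertical axis) in each of the 4 libraries, with 1 library per bar and 95% exact counting intervals as error bars. In every class the PLC library at 5 mM is the lowest and the Huh7 library at 25 mM the highest, and the ratio of the bars within PLC is larger than within Huh7.

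In each of the 5 classes PLC at 5 mM was the lowest library and Huh7 at 25 mM the highest, as the bars of summed CPM show. The ratio was largest for H3, the class with the fewest core histone genes here, at 1.83 (1.81 to 1.86) in Huh7 and 5.86 (5.69 to 6.03) in PLC. It was smallest for H4, at 1.46 (1.43 to 1.49) in Huh7 and 2.86 (2.79 to 2.94) in PLC. H2A stood at 1.75 and 4.86, H2B at 1.64 and 4.99, and the linker histone H1 at 1.58 and 3.19, in Huh7 and PLC respectively. This order holds for sums. By medians of single members H2B was the largest in PLC (7.39, H3 6.43) and H1 the smallest (2.41, H4 3.22), and in Huh7 H1 was the largest (1.94). The makeup of the histone reads moved with the sums. In PLC cells H3 went from 12.7% of histone reads at 5 mM to 17.8% at 25 mM, H4 from 18.99% to 13.0% and H1 from 27.4% to 20.9%. In Huh7 cells the shares moved less, with H3 at 21.4% and 23.5%, H4 at 11.6% and 10.2% and H1 at 18.5% and 17.6%. H2B held the most reads in both Huh7 libraries and in PLC at 25 mM while H1 held the most in PLC at 5 mM.

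Single members were held against the thresholds of the study, FPKM over 0.5 in at least 1 library of the line and a ratio over 1.5 or under 0.67. In Huh7 cells 61 members had FPKM over 0.5, of which 44 were higher at 25 mM and 1 lower, while 15.2% and 14.6% of the 21864 genes with such FPKM were higher and lower. In PLC cells 58 members had FPKM over 0.5, of which 55 were higher and 1 lower, against 27.3% and 17.9% of 21749 genes. Of these members, 3 in Huh7 and 8 in PLC had FPKM over 0.5 at 25 mM only, so that their direction was set by the filter. Among the members over 0.5 at 5 mM, 43 of 58 in Huh7 and 47 of 50 in PLC were past 1.5. Over all 67 members and with no filter, CPM was higher at 25 mM for 63 and lower for 2 in Huh7. In PLC it was higher for 61 and lower for 3, with the rest in each line at 0 reads in both libraries. Of all genes with at least 20 reads in a library of the line, 56.1% in Huh7 and 53.9% in PLC were higher. In both lines 39 of the 57 members with FPKM over 0.5 in each were past 1.5, against 5.86% of 18108 genes. This joint count still includes members over 0.5 in PLC at 25 mM only, such as H1-6, H2AC7, H2BC6, H3C15 and H4C14. Their direction in PLC was set by the filter. With a ratio over 2 or under 0.5 required instead, 17 members were higher and 0 lower in Huh7, and 52 higher and 1 lower in PLC. The share of all genes past these ratios was not taken, so these counts have nothing to stand against.

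**Figure D2:**
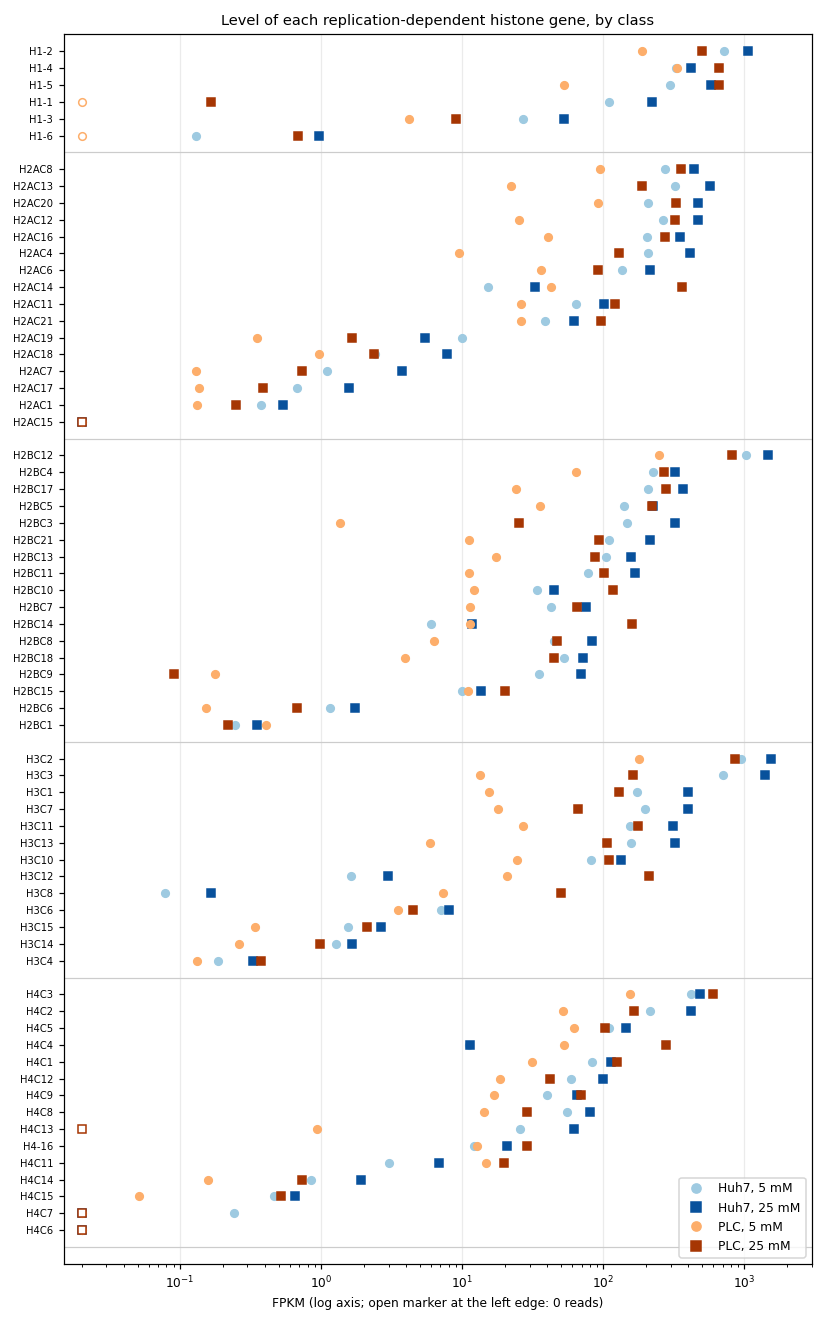
FPKM on a log axis of each of the 67 members in the 4 libraries, ordered within each class by mean FPKM, with open markers at the left edge for 0 reads. Levels span from 0 to 1551 FPKM (H3C2 in Huh7 at 25 mM), and for most members the PLC library at 5 mM is the leftmost point.

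In both lines, 52 members had 20 or more reads in the better covered library. All 52 had a ratio over 1 in both lines. Taken line by line, 56.1% (Huh7) and 53.9% (PLC) of all genes with such reads in that line were over 1. The share of all genes over 1 in both lines was not taken. For 49 of the 52 members the counting interval lay above 1 in both lines. The exceptions were H3C14, H4C4 and H3C6, whose interval in Huh7 reached 1. H4C14, H3C14, H2AC18, H3C15 and H2BC6 reached 20 reads in PLC at 25 mM only, in the smaller library. Their direction in PLC was therefore set by the filter. The median ratio over the 52 was 1.71 in Huh7 and 4.62 in PLC. The ratio in PLC was above that in Huh7 for 50 of the 52, the other two being H2AC18 and H4C11. Whether the response differed between lines could not be tested with 1 library per condition. Across the 52 genes the log2 ratios of the lines were weakly related (Spearman 0.37), whereas log2 FPKM at 5 and 25 mM in the same line were closely related (0.99 in Huh7 and 0.85 in PLC). Genes are not independent replicates, and the members share libraries and depth.

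**Figure D3:**
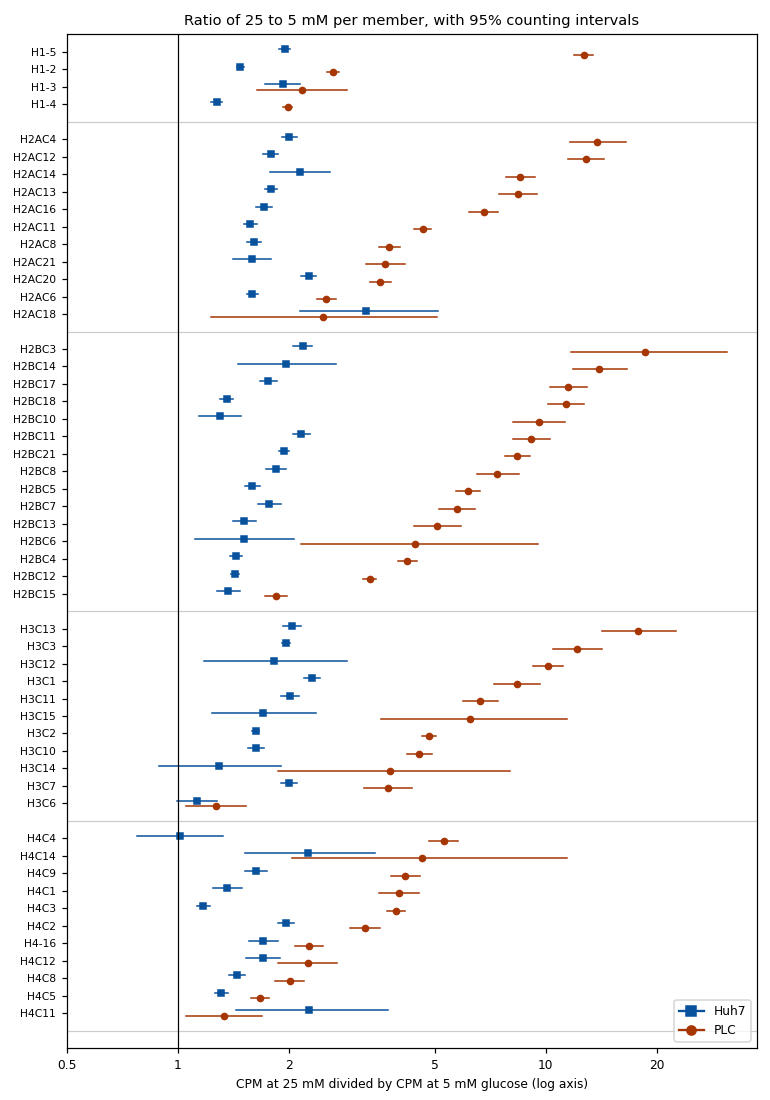
Ratio of CPM at 25 mM to CPM at 5 mM (log axis) for the 52 members with 20 or more reads in the better covered library of each line, squares for Huh7 and circles for PLC, with 95% exact counting intervals as bars. Huh7 points lie between 1.01 (H4C4) and 3.25 (H2AC18), while PLC points spread from 1.27 (H3C6) to 18.6 (H2BC3).

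Among the 6 H1 genes, which encode linker histones, H1-2, H1-4 and H1-5 were abundant in both lines, H1-1 was present in Huh7 and H1-6 was near the floor. H1-2, the H1 gene with the highest mean FPKM, had 521 and 771 CPM in Huh7 and 138 and 363 CPM in PLC at 5 and 25 mM, ratios of 1.48 (1.45 to 1.51) and 2.64 (2.54 to 2.75). H1-4 had 258 and 329 CPM in Huh7 and 263 and 522 CPM in PLC, ratios of 1.27 and 1.99. It was thus an abundant member that PLC cells held at the Huh7 level already at 5 mM, and it made up 59.0% of their H1 reads there. H1-5 behaved otherwise, with 237 and 462 CPM in Huh7 and 41.7 and 528 CPM in PLC, ratios of 1.95 (1.89 to 2.02) and 12.7 (11.9 to 13.4). Its share of the H1 reads in PLC went from 9.37% at 5 mM to 37.2% at 25 mM. H1-3 was low, at 21.1 and 40.6 CPM in Huh7 and 3.24 and 7.04 CPM in PLC. H1-1 had 82.8 and 167 CPM in Huh7, a ratio of 2.02, but 0 and 2 reads in PLC, both under the floor, so no fold is given there. H1-6, the testis H1, had 2 and 21 reads in Huh7 (ratio 7.46, interval 1.82 to 65.6) and 0 and 8 reads in PLC, at least 5.03-fold higher when a floor of 3 reads is set for the library at 5 mM, while the counting interval starts at 3.22-fold.

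Among the 16 H2A genes, 13 of 15 with FPKM over 0.5 in Huh7 and 13 of 13 in PLC were past 1.5. H2AC8 had the highest mean FPKM, with 274 and 441 FPKM in Huh7 and 94.1 and 354 FPKM in PLC. H2AC13 came next, with 320 and 574 FPKM in Huh7 and 22.3 and 187 FPKM in PLC. Their levels overlapped across conditions, but the PLC ratio was 8.40 (7.46 to 9.48) for H2AC13 and 3.76 (3.53 to 4.01) for H2AC8. Of the 52 members with 20 or more reads in each line, which are the ones ranked by mean log2 ratio here, H2AC4 was among the 5 largest, at 109 and 218 CPM in Huh7 (ratio 2.01) and 4.95 and 68.3 CPM in PLC (13.8, 11.6 to 16.5). H2AC14 was higher in PLC than in Huh7 at both concentrations, with 7.25 and 15.6 CPM in Huh7 and 20.1 and 171 CPM in PLC, ratios of 2.15 and 8.52. H2AC6 had the second smallest PLC ratio of the H2A genes in the plot of ratios, 2.53, after H2AC18 at 2.48 on few reads.

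Among the 17 H2B genes, 11 of 16 were past 1.5 in Huh7 and 15 of 15 in PLC. H2BC12 was the H2B gene with the highest mean FPKM, at 1024 and 1464 FPKM in Huh7 and 246 and 816 FPKM in PLC. Its ratios, 1.43 (1.40 to 1.46) and 3.32 (3.19 to 3.46), were lower than those of the class as a whole. H2BC4 followed with 223 and 321 FPKM in Huh7 and 64.3 and 270 FPKM in PLC, ratios of 1.44 and 4.20. H2BC3 had the largest mean log2 ratio of those 52, with 72.1 and 157 CPM in Huh7 (2.18, 2.06 to 2.31) and 0.661 and 12.3 CPM in PLC (18.6, 11.7 to 31.1), where 20 and 197 reads stood behind it. H2BC14 was also among the 5 largest, at 2.81 and 5.52 CPM in Huh7 (1.97) and 5.32 and 74.2 CPM in PLC (13.96). H2BC15, among the 5 smallest, had 54.6 and 74.8 CPM in Huh7 (1.37) and 59.9 and 111 CPM in PLC (1.85), nearly the same level in both lines at 5 mM. H2BC9 had 71.7 and 142 CPM in Huh7 (1.98) and 11 and 3 reads in PLC, a ratio of 0.515 whose interval, 0.0922 to 1.95, covers 1.

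Among the 13 H3 genes, 9 of 11 were past 1.5 in Huh7 and 11 of 12 in PLC. H3C2 led the class with 952 and 1551 FPKM in Huh7 and 179 and 862 FPKM in PLC, ratios of 1.63 (1.59 to 1.67) and 4.82 (4.62 to 5.04). H3C3 had 708 and 1395 FPKM in Huh7 but 13.3 and 162 FPKM in PLC, ratios of 1.97 and 12.1. The pair thus differed little in Huh7 at 25 mM and by far more in PLC. H3C13, one of the 5 largest mean log2 ratios, had 73.7 and 151 CPM in Huh7 (2.05) and 2.77 and 49.3 CPM in PLC (17.8, 14.2 to 22.5). H3C6, which lacks the stem-loop letters, had the smallest mean log2 ratio of the 52 members. It had 19.04 and 21.5 CPM in Huh7 (1.13, 0.995 to 1.28) and 9.38 and 11.9 CPM in PLC (1.27, 1.05 to 1.53). The H2B gene H2BC10 lacks the letters too, but its ratios were 1.30 (1.14 to 1.49) in Huh7 and 9.55 (8.12 to 11.3) in PLC. Whether the letters bear on the ratio was not tested.

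Among the 15 H4 genes, 7 of 13 were past 1.5 in Huh7 and 11 of 13 in PLC. These counts include H4C15 in both lines and H4C14 in PLC, over FPKM 0.5 at 25 mM only, so that the filter set their direction. H4C3 was the highest by mean FPKM, at 415 and 487 FPKM in Huh7 and 153 and 602 FPKM in PLC, ratios of 1.17 (1.13 to 1.22) and 3.92 (3.71 to 4.15). H4C2 followed with 213 and 420 FPKM in Huh7 and 51.5 and 166 FPKM in PLC, ratios of 1.97 and 3.22. In Huh7 at 25 mM the levels of both were close together, and in PLC they were not. H4C5 and H4C8 were among the 5 smallest mean log2 ratios. H4C5 had 163 and 215 CPM in Huh7 (1.31) and 91.3 and 153 CPM in PLC (1.67), and H4C8 had 119 and 172 CPM in Huh7 (1.45) and 30.6 and 61.7 CPM in PLC (2.01). H4C4 hardly differed in Huh7, at 4.49 and 4.55 CPM (1.01, 0.775 to 1.33), while PLC had 21.2 and 112 CPM (5.28, 4.82 to 5.79). H4C13, also without the stem-loop letters, had 211 and 725 reads in Huh7 (2.44, 2.09 to 2.86) and 11 and 0 reads in PLC. H4C6 had 0 reads in all 4 libraries, which allows up to the floor of 3 reads in each.

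By position, members closer than 200 kb were joined to 6 blocks (GRCh38). Of these, 1 lies on chromosome 1 at 149782689 to 149887965 (11 members), 4 lie on chromosome 6, and H4-16 stands alone on chromosome 12 at 14767999 to 14771131. The blocks of chromosome 6 run from 25726063 to 25727345 (H2AC1 and H2BC1), 26017032 to 26285638 (32 members), 27125897 to 27147562 (5 members) and 27807444 to 27893891 (16 members). The 32-member block held the most histone reads, 57.8% to 59.0% in Huh7, and went from 62.4% at 5 mM to 49.7% at 25 mM in PLC. The 16-member block moved the other way in PLC, from 15.5% to 25.2%. Accordingly its summed ratio was the largest in PLC, 6.79 (6.62 to 6.97), followed by the chromosome 1 block at 6.13 (5.88 to 6.38), the 5-member block at 4.52, the 32-member block at 3.33 (3.28 to 3.37) and H4-16 at 2.27. In Huh7 the ratios of these blocks lay between 1.58 (5 members) and 1.83 (chromosome 1). H2AC1 and H2BC1, known as testis genes, had 2 to 8 reads in each library, and no fold is read from them.

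**Figure D4:**
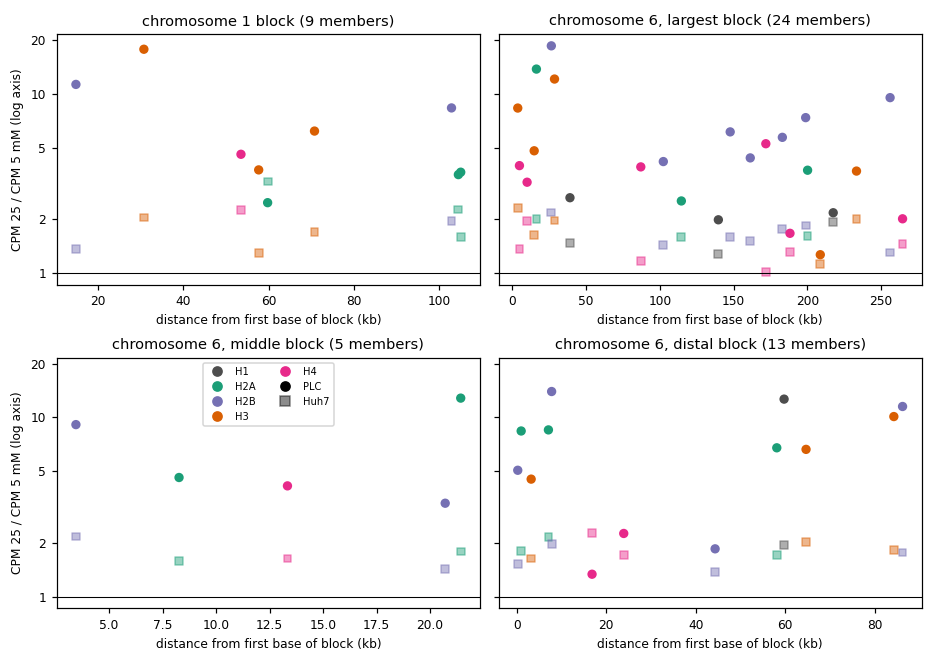
Ratio of CPM at 25 mM to CPM at 5 mM (log axis) against the distance from the first base of each of the 4 larger blocks, in kb, for the members with 20 or more reads in the better covered library of each line, circles for PLC, pale squares for Huh7, coloured by class. Large and small PLC ratios stand side by side in the blocks, as for the neighbours H3C3 (12.1) and H1-2 (2.64) in the largest block.

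Ratios differed between direct neighbours. An H2A and an H2B gene stood head to head in 10 places, with 214 to 282 bases between their ends. H2BC21 and H2AC20, which share the first octamer shown, had PLC ratios of 8.37 and 3.55 and Huh7 ratios of 1.95 and 2.27. H2BC12 and H2AC12 had PLC ratios of 3.32 and 12.8, so that here the H2A gene was the higher. H2BC7 had a PLC ratio of 5.73, and its partner H2AC7 had 2 and 6 reads, whose ratio of 5.66 has an interval of 1.01 to 57.3. H2AC14 and H2BC14, sharing the second octamer, had 8.52 and 13.96 in PLC and 2.15 and 1.97 in Huh7, and both were higher in PLC than in Huh7.

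Near-identical copies limit some single values. Of the 31-base windows in each member's exons, under 50% were found once in the genome for 13 members. None was for H2AC18, H2AC19, H3C14, H3C15, H4C14 and H4C15. The others were H2AC13 (36.2%), H2AC14 (31.2%), H2BC12 (29.0%), H2BC18 (21.3%), H3C13 (19.4%), H4C11 (7.52%) and H4C12, with a still smaller share. How reads that match several places were counted is not given in the sources used here. The single values of all these genes carry that limit, and the copies with no such window are better read as sums. H2AC18 and H2AC19 together had 147 and 220 reads in Huh7 (1.06, 0.859 to 1.32) and 22 and 36 reads in PLC (3.09, 1.77 to 5.51). Taken alone, H2AC18 was at 3.25 and H2AC19 at 0.549 in Huh7, and the latter is the 1 member counted as lower there. H3C14 and H3C15 together had ratios of 1.52 (1.19 to 1.95) and 5.16 (3.36 to 8.12), and H4C14 and H4C15 of 1.96 (1.42 to 2.73) and 5.97 (3.06 to 12.6). The exons of 14 members overlap another gene in the table, over at least 50% of their length in H3C4, H2AC7, H2AC15 and H2AC17. H2AC15, with 0 reads in all libraries, lies wholly within an exon of H2BC15 on the other strand.

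A change shared by the lines was looked for with edgeR, by a quasi-likelihood fit in which line and glucose were terms. Its p-values were adjusted by Benjamini-Hochberg over 23217 genes. The fit leaves 1 residual degree of freedom per gene, set by how far the responses of the lines lie apart. It also borrows spread from the other genes, so its p-values do not measure how alike the lines responded for a single gene. Of 60 members tested, 9 passed an adjusted p of 0.05 as higher at 25 mM and 0 as lower, against 0.0646% and 0.314% of genes. Of the 15 genes that rose, 9 were thus members. As higher at an unadjusted p under 0.05 stood 53 of the 60 members, against 4.14% of genes. A positive log2 fold change was found for 60 of 60 members, against 11328 of the 23217 genes. For lower members the count at an unadjusted p under 0.05 was also 0, against 4.36% of genes. The median log2 fold change was 1.39 for the members and -0.01 for all genes.

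The members that rose came from 4 classes. H3C8 had a log2 fold change of 2.43 (SE 0.38, edgeR adjusted p = 0.018) and H3C1 of 2.03 (SE 0.35, edgeR adjusted p = 0.028). H2AC20 followed with 1.42 (SE 0.23, edgeR adjusted p = 0.0198). In Huh7, however, H3C8 had only 4 and 12 reads, at FPKM 0.0776 and 0.165, under the minimum of 0.5. Its ratio there was 2.13, with a counting interval of 0.646 to 9.07 that covers 1. The change of H3C8 thus rested mainly on PLC, with 534 and 1945 reads. H2BC11, H2AC14, H3C11, H3C7, H2BC21 and H4C2 had log2 fold changes of 2.05, 2.06, 1.78, 1.35, 1.92 and 1.25, with edgeR adjusted p between 0.042 and 0.0486. No H1 gene passed; the H1 gene with the smallest edgeR adjusted p was H1-5, at 0.067 with a log2 fold change of 2.23 (SE 0.46). The count of members that passed depended strongly on the fit, and all genes called in either direction stand in brackets. By RLE factors 7 of 60 passed (80 of 23217 genes), and by limma-voom 8 of 60 (92 of 23217). By DESeq2 it was 26 of 50 (194 of 11064), and without a filter on low counts 39 of 65 (526 of 38660). With at least 10 counts in every library it was 0 of 51 (27 of 16164), where 48 still had an unadjusted p under 0.05. Without the line as a block it was 0 of 60 (0 of 23217), with 0 members at an unadjusted p under 0.05.

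Levels also differed between the lines. At 5 mM the summed histone CPM of Huh7 was 3.72 times that of PLC, and at 25 mM 1.48 times. By class the gap at 5 mM ran from 2.27 times (H4) to 6.26 times (H3), and at 25 mM from 1.16 times (H4) to 1.96 times (H3). In the 16-member block it was 3.66 times at 5 mM and 0.966 times at 25 mM. In the same edgeR fit, 40 of 60 members were higher in Huh7 and 6 higher in PLC at an adjusted p under 0.05, against 21.8% and 21.1% of genes, and the median log2 difference was 1.46 for members and 0.03 for all genes. The 18 of 60 calls without glucose in the model, against 8812 of 23217 genes, were the fewest of the alternatives. The others ran from 38 of 60 (DESeq2, against 7160 of 23217 genes) to 49 of 65 (no filter on low counts, against 10305 of 38660 genes).

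**Figure D5:**
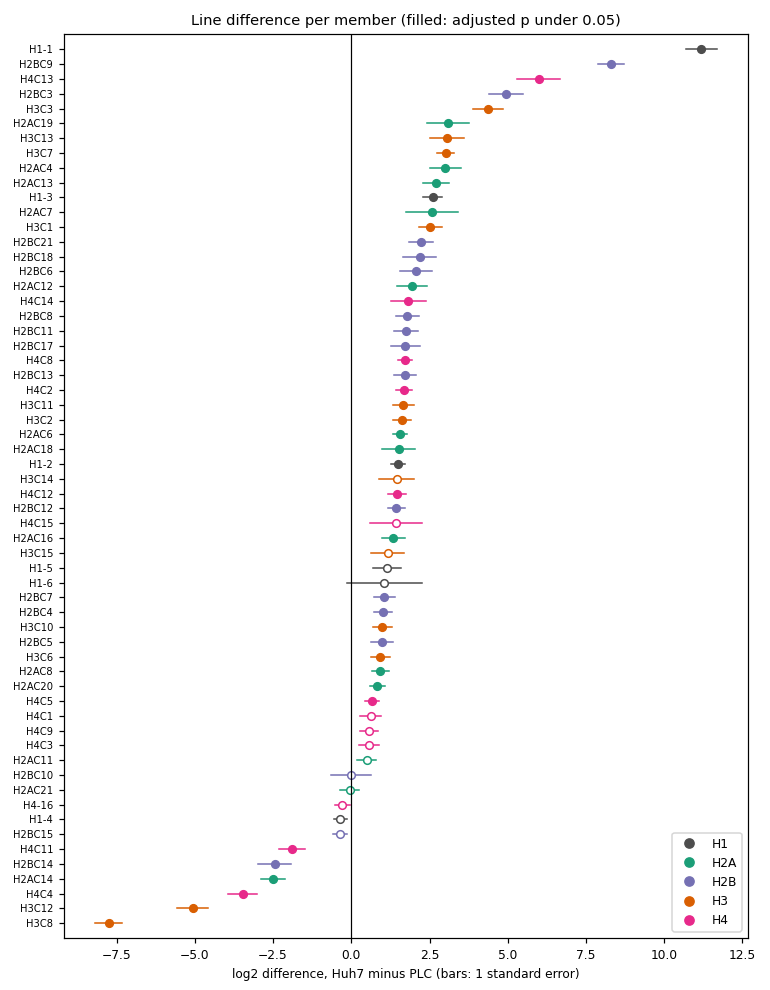
Log2 difference between Huh7 and PLC (positive where Huh7 is higher) for the 60 members tested, with bars of 1 standard error, coloured by class and filled where the edgeR adjusted p is under 0.05. Most members lie to the right of 0, and the 6 filled points on the left run from H4C11 to H3C8, the farthest.

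Among the largest line differences, some members, such as H1-1 and H2BC9, were nearly confined to 1 line in these libraries. H1-1 had 1769 and 5025 reads in Huh7 against 0 and 2 in PLC (edgeR adjusted p = 3.6e-09), at least 835-fold higher at 5 mM when a floor of 3 reads is set for the PLC library, while the counting interval starts at 679-fold. H2BC9 was 197 times higher in Huh7 at 5 mM (110 to 396, edgeR adjusted p = 1.05e-08). H4C13 was 27.2 times higher at 5 mM (14.9 to 55.3, edgeR adjusted p = 1.38e-05). H2BC3 and H3C3 completed the 5 largest differences toward Huh7, at log2 4.94 and 4.38. They were 109 and 53.2 times higher at 5 mM and 12.8 and 8.64 times higher at 25 mM. Neither was confined to Huh7, since PLC had 20 and 197 reads of H2BC3 and 196 and 1260 reads of H3C3.

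In the other direction, H3C8 had 4 and 12 reads in Huh7 against 534 and 1945 in PLC, a log2 difference of -7.75 (SE 0.44, edgeR adjusted p = 2.24e-08). H3C12 had 30 and 77 reads in Huh7 against 539 and 2890 in PLC (log2 -5.07, SE 0.48, edgeR adjusted p = 2.4e-06), with 40.3% of its exon also in H2AC17. H4C4, H2AC14, H2BC14 and H4C11 were the other members higher in PLC, at log2 -3.47, -2.51, -2.45 and -1.89. H3C8 lies in the same block as H1-1, H2BC9, H2BC3 and H3C3, so members of one block differed between the lines in both directions.

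Members also known from polyadenylated mRNAs, H1-2, H2AC6, H2BC4, H2BC5, H2BC12 and H2BC21, had a median ratio of 1.54 in Huh7 and 3.76 in PLC. For the other 61 members the medians were 1.78 (54 with at least 20 reads) and 4.82 (47 with at least 20 reads), and no difference was tested. Past 1.5 were 3 of the 6 in Huh7 and 6 of 6 in PLC, and H2BC21 alone was among the members that rose in the edgeR test. H2BC5 had 123 and 195 CPM in Huh7 and 31.1 and 192 CPM in PLC, so that its level in PLC at 25 mM was close to that in Huh7.

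The genes around histone supply were listed by their roles, and their counts stand against the 15.2% (Huh7) and 27.3% (PLC) of all genes past 1.5. Of 20 genes for histone mRNA transcription and 3′ end processing, 1 was past 1.5 in Huh7 and 2 were in PLC, with 1 under 0.67 in PLC, and the median ratios were 1.10 and 0.919. SLBP, which binds the stem-loop, had 102 and 119 CPM in Huh7 (1.17) and 39.3 and 83.2 CPM in PLC (2.12). CASP8AP2, a protein of the histone locus body, was at 1.52 and 1.68, and NPAT, the coactivator of histone gene transcription, at 1.31 and 1.30. LSM11, a subunit of the U7 snRNP, was at 0.970 and 0.580. RNU7-1, the U7 RNA, had 0 reads in every library.

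Replacement histones, which are made outside S phase as well, had median ratios of 1.16 in Huh7 and 1.43 in PLC, with 2 of 11 past 1.5 in Huh7, and 4 past 1.5 and 2 under 0.67 in PLC. H2AX, whose mRNA has the stem-loop letters too, was at 1.53 and 3.55, and CENPA, the centromere H3, at 1.48 and 3.42. Of 16 histone chaperones, 3 were past 1.5 in Huh7 and 7 in PLC, with medians of 1.25 and 1.41. ASF1B, which hands H3 and H4 to newly made DNA, was at 1.94 and 8.46, and both CHAF1A and CHAF1B, of the assembly factor CAF-1, at 1.46 and 1.52 in Huh7 and 3.04 and 4.41 in PLC. ASF1A, NAP1L1 and SSRP1, chaperones as well, were at 0.708, 0.699 and 0.737 in PLC and at 1.21, 0.946 and 1.09 in Huh7.

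Genes of S phase and DNA replication were higher at 25 mM in both lines too. All 20 listed had a ratio over 1 in each line, 9 were past 1.5 in Huh7 and 20 in PLC, and the medians were 1.49 and 2.68. PCNA, the sliding clamp, was at 1.58 and 3.98, RRM2, a subunit of ribonucleotide reductase, at 1.74 and 6.44, and CCNE2, a cyclin of the entry into S phase, at 1.84 and 4.11. Their summed CPM was 2040 and 3017 in Huh7 and 848 and 2237 in PLC, the same order of libraries as for the histone genes. What part the number of cells in S phase has in the histone values was not tested. None of the listed genes named here or of the cell type markers passed an edgeR adjusted p of 0.05, apart from H2BC21. At an unadjusted edgeR p under 0.05, 19 of the 20 S phase genes and 4 of the 8 hepatocyte and liver tumour markers were higher. So were 7 chaperones, 3 replacement histones and 2 genes of histone mRNA processing, against 4.14% of all genes tested.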

How the data were processed

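The deposited values are counts of reads per gene made by the authors from rRNA-depleted, directional libraries. HISAT2, featureCounts and hg38 are named in the submitters' processing notes. Versions, the annotation release and the treatment of strand and of reads with several matches are not given in the sources used here. In all, 59652 genes were used and 5 broken lines were left out. Totals per library lay between 16049686 and 30279716. CPM, FPKM (by the gene length in the table) and ratios were calculated here from library totals, with no pseudocount, and calls needed a ratio past 1.5 or 0.67 at an FPKM above 0.5. Intervals are exact 95% Clopper-Pearson intervals for counting error only. The shared change and the line difference were tested on counts with edgeR 4.0.16 (filterByExpr, TMM, line and glucose as terms). Lists are described by counts and medians. The code was tested on simulated data. Genes, lists and rules were chosen with earlier results of these data known. Named were the 2 highest members by FPKM in each class, all H1 genes, the 5 largest and 5 smallest mean log2 ratios, the 5 largest line differences either way, members past the tests or in opposite directions, members known as polyadenylated, those with 0 reads and those with a printed sequence. Genes on the other lists were picked as examples after their values were seen. Alternatives used DESeq2 1.42.0, limma 3.58.1, other scalings, filters, pseudocounts and thresholds. Sequences come from hg38 and RefSeq with GENCODE stop codons. On the lists, 1 gene is counted but not reported by name.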

Additional observations from a re-analysis of the deposited data

Results flagged for a closer look

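H2AC19 and H4C13 were past the thresholds in opposite directions in the lines, and the difference was not tested. H2AC19 had a ratio of 25 to 5 mM of 0.549 in Huh7 (119 and 92 reads) and 4.72 in PLC (6 and 15 reads). With its copy H2AC18, from which its reads cannot be told apart, the ratios were 1.06 and 3.09. H4C13 had a ratio of 2.44 in Huh7 (211 and 725 reads) and of 0 in PLC (11 and 0 reads), where the counting interval reached up to 0.752. In PLC, H2AC19 was over FPKM 0.5 at 25 mM only and H4C13 at 5 mM only, so that the filter set their direction there.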

How the results depend on the processing

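Glucose levels were paired by line in the edgeR fit. No further pairing by replicate and no leaving out of a replicate was possible because each line and glucose concentration had 1 library. Of 64 values that moved, all that are ratios stayed over 1, while for counts only the size was compared. Scaling moved the median log2 ratio of all genes in PLC by -0.12 (TMM) and -0.11 (DESeq2). The counts past the thresholds kept within 1.5 times except that ratios over 2 or under 0.5 left 17 higher and 0 lower in Huh7. No share of all genes was taken at those ratios. The counts of lower members, 1 in each line, were 2 in Huh7 and 3 in PLC without a filter, 0 in PLC with FPKM over 1 or with 20 or more reads, and 0 in Huh7 for the 45 members free of repeated windows and overlaps (chosen after seeing the data), of which 30 and 37 were higher in Huh7 and PLC. With TMM scaling, the ratios of all members, H1, H2A, H2B, H3 and H4 were 1.63, 1.54, 1.71, 1.59, 1.78 and 1.42 in Huh7 and 3.85, 2.94, 4.47, 4.59, 5.39 and 2.63 in PLC. With DESeq2 size factors, the ratios of the same 6 groups were 1.64, 1.55, 1.72, 1.60, 1.80 and 1.43 in Huh7 and 3.87, 2.95, 4.50, 4.62, 5.42 and 2.65 in PLC. Without the member with the most reads, the ratios of the same 6 groups were 1.69, 1.67, 1.79, 1.72, 1.96 and 1.55 in Huh7 and 4.32, 3.44, 5.47, 5.81, 6.68 and 2.60 in PLC. With the 54 members of mostly unrepeated windows, they were 1.69 and 1.77 for all members and H2B in Huh7 and 4.09, 4.44 and 5.51 for all members, H2A and H2B in PLC, the others lying within their counting intervals. As medians of single members, they were 1.74, 1.94, 1.79, 1.68 and 1.63 for all members, H1, H2A, H2B and H4 in Huh7 and 4.62, 2.41, 4.62, 7.39, 6.43 and 3.22 for all members, H1, H2A, H2B, H3 and H4 in PLC. For the shared change, 9 members passed; without a filter 39, with DESeq2 26, and with at least 10 counts in every library or without the line as a term 0 passed. For the line difference, 46 passed, and 18 without glucose as a term. The counts or shares of all genes beside these are given above. The cause of these moves was not tested.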
